A study of Mus musculus with 2 samples.

Results

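The granzymes and perforin are the killing proteins of cytotoxic lymphocytes, and 10 of their genes, Gzma, Gzmb, Gzmc, Gzmd, Gzme, Gzmf, Gzmg, Gzmk, Gzmm and Prf1, were followed in single cells of mouse tumors. They were found by symbol among the 32285 genes of the feature lists, and all 10 were present in both libraries. CD45+ immune cells, enriched on magnetic beads and sorted by flow cytometry, came from MC38 colon tumors grown under the skin of both flanks of male C57BL/6 mice. Both groups received microwave ablation (MWA), heating of the tumor through a probe, on the right tumor only, at a volume near 300 mm3, and both were sampled from the left tumor, which was not ablated, on day 8 after MWA. The MWA group had no TIGIT blockade and, by the study's methods, an isotype control antibody. The MWA plus TIGIT group was given antibody against TIGIT, an inhibitory receptor of T and natural killer (NK) cells. Per the labels this group had 3 injections at intervals of 3 days from day 1 after MWA. The study's methods state more injections at the same interval, a course that would run past day 8. Each group was 1 droplet library of the 10x Genomics 3' kit, the number of mice behind a library is not given in the sources used here, and an untreated group was not analysed here. With 1 library per group there is no test between the groups and no replicate check, so every interval below is a 95% interval that covers counting error only.

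Granzymes are serine proteases that are stored in the granules of cytotoxic T cells and NK cells and released onto a target cell, where perforin, the product of Prf1, forms the pores through which they enter. Granzyme B cuts after aspartate, activates caspases and starts apoptosis, whereas granzymes A and K cut after lysine or arginine, and granzyme M cuts after methionine or leucine. Mice carry a further series of granzyme B relatives, granzymes C to G, that humans lack, and these are known from strongly activated T and NK cells. Regulatory T cells in tumors are also known to make granzyme B.

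The genes lie at 4 places in the genome (GENCODE annotation on GRCm38). Gzmb, Gzmc, Gzmf, Gzmg, Gzmd and Gzme form a run of neighbors on the minus strand of chromosome 14, within chr14:56117626-56262260, together with Gzmn, which had no UMI in any cell class. Gzma (chr13:113093825-113100981) and Gzmk (chr13:113171608-113225908) lie beside each other on chromosome 13, separated by 70.6 kb, while Prf1 (chr10:61297833-61304680) and Gzmm (chr10:79689020-79695261) lie far apart on chromosome 10. Their promoters are shown because Gzmb was spread over many cell classes below, whereas Gzmc to Gzmf were counted mostly in NK-like and CD8+ exhausted-like cells. In the RefSeq promoters (250 bases before to 50 after each gene's start, GRCm38.p6), those of Gzmc to Gzmg were 81.3% to 93.7% identical to each other and 55.3% to 59.3% identical to that of Gzmb. The longest run of bases common to these 5 promoters, 20 bases in capitals, was taken from them. Its presence in all 5 was therefore fixed by that choice. Of the 32851 promoters, 5 held the run, namely these 5. The stretches around it, 5' to 3' on the minus strand, are followed by a stretch of the same length from the Gzmb promoter, where the run was not found.
Gzmc: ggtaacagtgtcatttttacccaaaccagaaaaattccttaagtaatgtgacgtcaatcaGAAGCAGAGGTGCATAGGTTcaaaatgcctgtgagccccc
Gzmd: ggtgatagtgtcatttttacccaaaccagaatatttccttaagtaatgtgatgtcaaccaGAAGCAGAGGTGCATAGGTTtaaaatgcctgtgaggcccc
Gzme: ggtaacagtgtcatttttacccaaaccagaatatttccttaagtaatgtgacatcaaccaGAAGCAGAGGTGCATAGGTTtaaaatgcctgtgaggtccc
Gzmf: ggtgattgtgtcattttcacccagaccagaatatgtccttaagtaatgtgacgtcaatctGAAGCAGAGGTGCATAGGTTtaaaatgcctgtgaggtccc
Gzmg: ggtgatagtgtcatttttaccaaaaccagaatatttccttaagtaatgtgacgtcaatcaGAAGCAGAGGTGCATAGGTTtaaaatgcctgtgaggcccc
Gzmb: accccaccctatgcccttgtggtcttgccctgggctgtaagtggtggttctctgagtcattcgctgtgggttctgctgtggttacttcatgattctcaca

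These stretches lie at chr14:56234663-56234762 for Gzmc, chr14:56132603-56132702 for Gzmd, chr14:56120636-56120735 for Gzme, chr14:56211438-56211537 for Gzmf, chr14:56159605-56159704 for Gzmg and chr14:56262345-56262444 for Gzmb. On either strand, the RUNX motif ACCACA was found at 2 places in each of these 6 promoters, at 1 place in those of Gzma, Gzmm and Prf1, at none in that of Gzmk, and in 16.8% of all promoters. The cyclic AMP response element TGACGTCA was found in the promoters of Gzmc, Gzmf and Gzmg, against 1.79% of all promoters, and lies just before the capitals in those 3 stretches. The AP-1 motif TGANTCA was found among the members in the Gzmb promoter alone, against 7.81% of all promoters, and the letters of these motifs do not overlap in the stretches shown. Such matches describe the letters of these windows and are not evidence of binding. The last 500 bases of the transcripts, which a 3' library reads, were 92.8% identical between Gzmd and Gzme, and 7 of their 411 windows of 90 bases were the same in both, so reads may be lost or split between that pair. No other pair of the chromosome 14 members shared a window of 90 bases, and Gzmb was 58% to 60% identical to the others.

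The libraries held 10217 and 10190 barcodes (MWA first, here and throughout), of which 9231 and 9127 were kept after filters, with medians of 5308 and 6311 UMIs, the counted molecules, per cell. The libraries shared 37 barcodes, 29 of them kept in both. Cells were clustered without the members, Gzmn or T cell receptor segments, and clusters were named from marker genes, giving 1948 and 2033 CD8+ T cells of several states, 167 and 121 NK-like cells, 733 and 594 regulatory T cell (Treg)-like cells and 4304 and 4542 tumor-associated macrophage (TAM)-like cells, among others. The markers of the main cell types were in place, with Cd8b1 at 643 and 797 UMIs per 1000000 UMIs summed over CD8+ T cells (CPM), Ncr1 at 261 and 227 CPM in NK-like cells, where Cd3e was at 17.8 and 39.3, and Foxp3 at 459 and 532 CPM in Treg-like cells. Support for the CD8+ state names was uneven. Among 10 leading genes, the effector-like cluster had 1 listed marker, Ly6c2, against 4 for the exhausted-like and 6 for the interferon-induced-like cluster. A cycling-like cluster of 301 and 286 cells also had 1, and the mean log2 excess of its listed markers was -0.73. Some classes were mixed: the CD8+ cycling-like state held 17.7 and 14.5 CPM of Foxp3, the CD8+ interferon-induced-like state 91.1 and 73.1 CPM of Cd4, and a finer clustering split 22 Cd4 Cd40lg cells, all of the MWA plus TIGIT library, off the CD8+ T cells. One T cell cluster led by Trdc and Klra7 carried both T and NK receptor genes and is called by those genes.

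The members differed in the order of the cell classes by level (heat map of CPM by class). NK-like cells led for Gzma, Gzmc and Prf1 in both libraries, and CD8+ effector-like cells led for Gzmk in both. Gzmb was highest in NK-like cells in one library and in Treg-like cells in the other, and Gzmd, Gzme and Gzmf in CD8+ exhausted-like cells in one and in NK-like cells in the other. Of all UMIs in the kept cells, 88.2% and 76.1% of Gzmc lay in NK-like cells, 88.5% and 92.6% of Gzmk in CD8+ T cells, and 26.6% and 24.3% of Gzmb in Treg-like cells. TAM-like cells, which should lack these genes and had the highest median depth of the named classes, were at 4.3 and 5.03 CPM of Gzma, 2.59 and 2.36 CPM of Gzmb and 1.11 and 0.533 CPM of Gzmc, and B-like cells held at most 1 UMI of any member. These values serve as the background here, and levels near them are not read as expression.

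**Figure D1:**
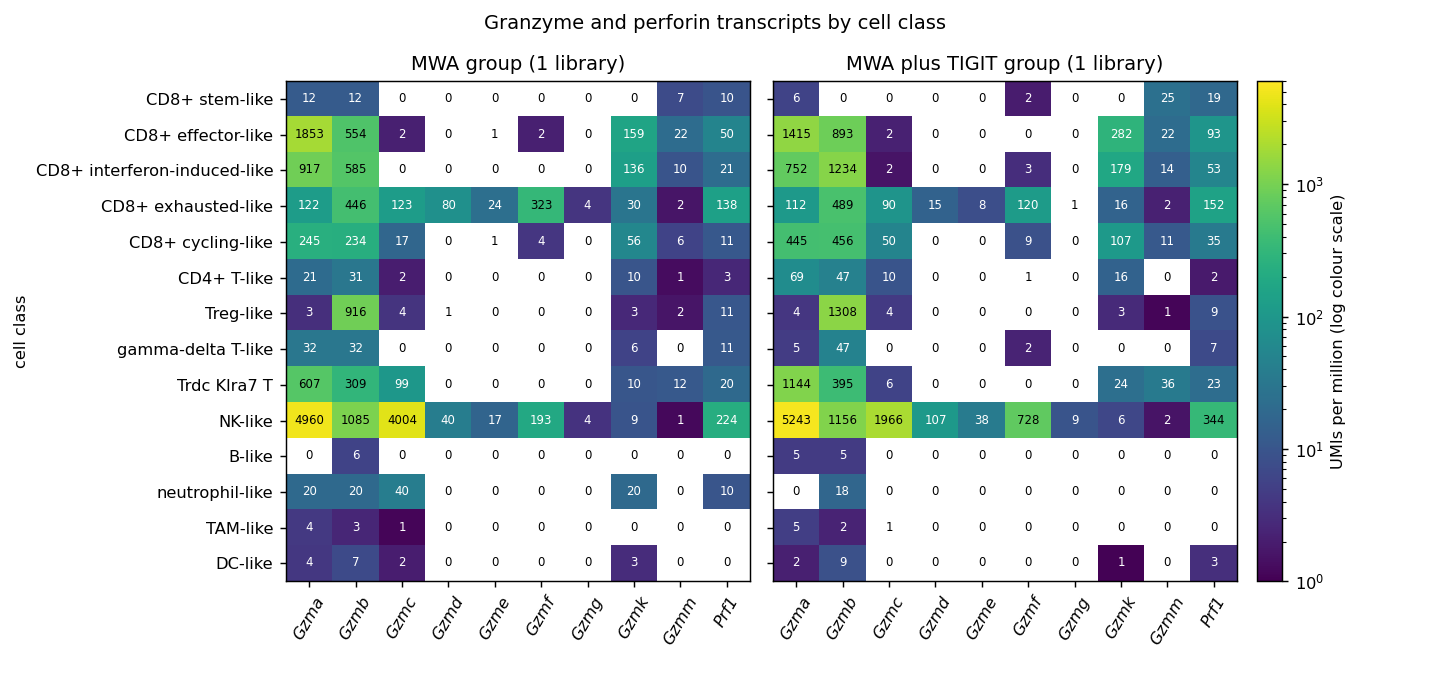
Level of each granzyme and of perforin (columns) in each cell class reported (rows) of the MWA library and the MWA plus TIGIT library (panels), as CPM on a log color scale, with 1 library per group and fields under 1 CPM left blank. Gzma is high in NK-like and CD8+ effector-like cells, Gzmb also in Treg-like cells, and Gzmc stands out in NK-like cells at 4004 and 1966 CPM.

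Gzma, the abundant tryptase granzyme, was at 4960.5 CPM (95% interval 4811 to 5113) in NK-like cells of the MWA library and 5243 CPM (95% interval 5066 to 5424) in those of the MWA plus TIGIT library. In CD8+ effector-like cells Gzma was at 1853 CPM (95% interval 1791 to 1915) and 1415 CPM (95% interval 1371 to 1461), so NK-like cells exceeded them by 2.68 (2.56 to 2.8) times and 3.7 (3.54 to 3.88) times. CD8+ effector-like cells in turn exceeded CD8+ exhausted-like cells, at 122 and 112 CPM, by 15.2 (13.3 to 17.4) times and 12.6 (10.7 to 14.9) times. The step from effector to exhausted states was thus far larger than any difference of Gzma between the libraries in those states. CD8+ interferon-induced-like cells were at 917 and 752 CPM and Trdc Klra7 T cells at 607 and 1144 CPM. The order of these 2 neighbors was not the same in both libraries. In Treg-like cells Gzma was at 3.22 and 3.9 CPM, which is the level of TAM-like cells. With every cell thinned to 1000 UMIs, Gzma was seen in 69.5% (61.9 to 76.3) of 167 and 70% (61 to 78) of 120 NK-like cells and in 33.2% (29.3 to 37.2) of 582 and 32.1% (28.9 to 35.4) of 804 CD8+ effector-like cells, against 0.451% and 0.295% of TAM-like cells.

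Gzmk, the chromosome 13 neighbor of Gzma, was nearly restricted to CD8+ T cells. It was at 159 CPM (95% interval 141 to 178) and 282 CPM (95% interval 263 to 303) in CD8+ effector-like cells, followed by CD8+ interferon-induced-like cells at 136 and 179 CPM and CD8+ cycling-like cells at 56.1 and 107 CPM. The ratio of effector-like to interferon-induced-like cells was 1.17 (0.9 to 1.54) in the MWA library, where the interval holds 1, and 1.58 (1.29 to 1.94) in the other. CD8+ exhausted-like cells were at 29.6 and 16.1 CPM, 5.37 (4.01 to 7.29) times and 17.5 (11.5 to 28.1) times below effector-like cells. In NK-like cells, where Gzma was highest, only 8 and 4 UMIs of Gzmk were counted. Within thinned CD8+ effector-like cells Gzmk was found in 27.5% (21.3 to 34.3) of 193 cells with Gzma and in 9.51% (6.79 to 12.9) of 389 cells without it in the MWA library, and in 29.8% (24.3 to 35.8) of 258 and 20% (16.7 to 23.6) of 546 in the MWA plus TIGIT library. The cells with Gzma were thus the more frequent carriers of Gzmk in both libraries. Gzmm, which was counted in small numbers throughout, was at 21.9 and 22 CPM in CD8+ effector-like cells, 7.22 and 25 in CD8+ stem-like cells and 11.5 and 35.6 in Trdc Klra7 T cells. Its ratios of effector-like to stem-like cells were 3.04 (0.969 to 15.3) and 0.879 (0.477 to 1.75), both with intervals that hold 1, and NK-like cells held 1 UMI of Gzmm in each library.

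Gzmb, the caspase-activating granzyme, was far above background in NK-like cells, Treg-like cells and the CD8+ effector-like, interferon-induced-like, exhausted-like and cycling-like states. NK-like cells were at 1085 CPM (95% interval 1016 to 1158) and 1156 CPM (95% interval 1074 to 1243), and Treg-like cells at 916 CPM (95% interval 873 to 961) and 1308 CPM (95% interval 1255 to 1361). NK-like cells stood above Treg-like cells in the MWA library and below them in the MWA plus TIGIT library, with ratios of 1.18 (1.09 to 1.28) and 0.884 (0.813 to 0.961). CD8+ effector-like cells were at 554 and 893 CPM, CD8+ interferon-induced-like cells at 585 and 1234, CD8+ exhausted-like cells at 446 and 489 and CD8+ cycling-like cells at 234 and 456. In the MWA library the interferon-induced-like and effector-like states did not differ beyond counting error, with a ratio of 1.06 (0.927 to 1.2), and in the MWA plus TIGIT library the ratio was 1.38 (1.27 to 1.5). CD4+ T-like cells outside the Treg-like class were at 31.3 and 46.5 CPM, so among CD4+ cells the gene was mostly that of Treg-like cells. By mean UMIs per cell, which follows the RNA content of the cells, NK-like cells came first for Gzmb in both libraries.

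The level of Prf1 relative to Gzmb differed between classes (plot of Prf1 UMIs per 100 Gzmb UMIs). Prf1 was at 224 CPM (95% interval 193 to 258) and 344 CPM (95% interval 300.4 to 393) in NK-like cells, at 138 CPM (95% interval 122 to 156) and 152 CPM (95% interval 132 to 174) in CD8+ exhausted-like cells and at 50.3 CPM (95% interval 40.6 to 61.5) and 93 CPM (95% interval 81.9 to 105) in CD8+ effector-like cells. The exhausted-like state therefore exceeded the effector-like state in Prf1 by 2.75 (2.16 to 3.52) times and 1.63 (1.35 to 1.97) times, although its Gzma and Gzmk were the lower ones. For every 100 UMIs of Gzmb, CD8+ exhausted-like cells held 31 (26.8 to 35.7) and 31 (26.4 to 36.3) UMIs of Prf1, NK-like cells 20.7 (17.6 to 24.2) and 29.8 (25.5 to 34.7), and CD8+ effector-like cells 9.08 (7.27 to 11.2) and 10.4 (9.11 to 11.8). This ratio of UMIs has no absolute meaning, since 2 transcripts need not be captured alike, but it can be set side by side between classes. It was lowest in Treg-like cells, at 1.17 (0.714 to 1.82) and 0.681 (0.389 to 1.11), which carried Gzmb nearly without Prf1. Among thinned Treg-like cells with Gzmb, Prf1 was found in 1.95% (0.721 to 4.21) of 307 and 1.63% (0.533 to 3.77) of 306, and Gzma in 0% (0 to 1.19) of 307 and 0.327% (0.00827 to 1.81) of 306. Treg-like cells thus carried Gzmb mostly without another member, and 1.13% and 1.56% of them held at least 2 members at this depth, against 56.9% and 57.5% of NK-like cells and 28.9% and 31.7% of CD8+ effector-like cells.

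**Figure D2:**
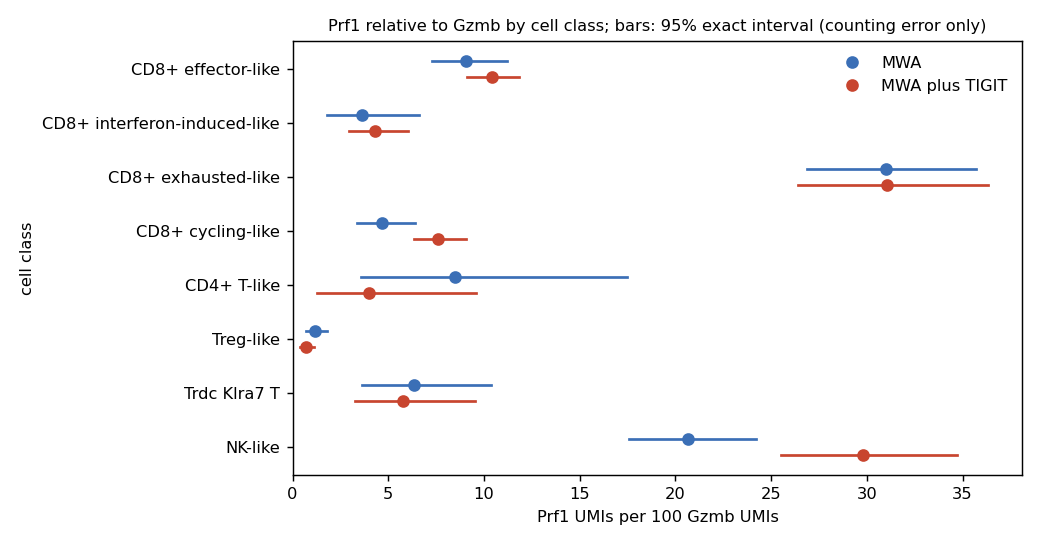
Prf1 UMIs per 100 Gzmb UMIs in each class with at least 200 Gzmb UMIs over both libraries, for the MWA and the MWA plus TIGIT library, with 95% counting intervals as bars and 1 library per group. CD8+ exhausted-like cells sit at 31 and 31 and Treg-like cells at 1.17 and 0.681, with the other classes between.

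Gzmc was a gene of NK-like cells, at 4004 CPM (95% interval 3869.6 to 4141) and 1966 CPM (95% interval 1859 to 2078), which is 32.6 (28.5 to 37.5) times and 22 (18.2 to 26.7) times the level of CD8+ exhausted-like cells, the next class. Within NK-like cells it did not run with Gzma, the other abundant granzyme there (scatter of Gzma against Gzmc per cell). In thinned cells of the MWA library, Gzmc was found in 12.1% (6.76 to 19.4) of 116 cells with Gzma and in 62.7% (48.1 to 75.9) of 51 cells without it. In the MWA plus TIGIT library the shares were 7.14% (2.67 to 14.9) of 84 with Gzma and 47.2% (30.4 to 64.5) of 36 without it. The intervals were apart in both libraries, and the cells thus fell mostly into those rich in one and those rich in the other gene. With at least 3 UMIs as the limit in cells as deposited, 98 and 80 NK-like cells held Gzma only, 34 and 16 Gzmc only, 16 and 9 both and 19 and 16 neither. Depth moved with this split and its part in it was not tested beyond the thinning, since cells with Gzma only had medians of 3294 and 3488 UMIs and cells with Gzmc only 7312 and 6985.

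**Figure D3:**
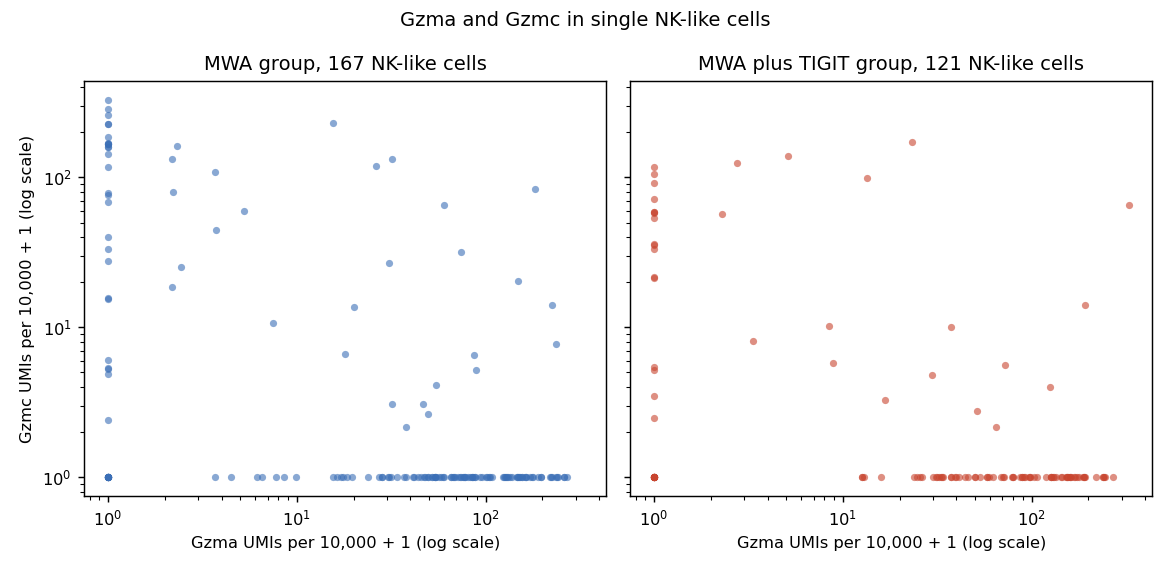
Gzma against Gzmc in each NK-like cell of the MWA and the MWA plus TIGIT library, both axes as UMIs per 10000 UMIs of the cell plus 1 on a log scale, 1 point per cell. Most points lie along one of the axes, and cells with at least 3 UMIs of both genes number 16 of 167 and 9 of 121.

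Other members and known NK genes are given for these 2 kinds of NK-like cell as a description, and the NK genes were chosen after values had been seen. Prf1 was at 258 and 514 CPM in cells with Gzma only and at 109 and 109 CPM in cells with Gzmc only. Gzmb had no common direction, at 848 and 1180.4 against 1097 and 1092 CPM. Eomes, a transcription factor of mature NK cells, was at 142 and 207 against 58.8 and 101 CPM, and the integrin gene Itgam, which marks circulating NK cells, at 50.1 and 52.6 against 4.2 and 0. Itga1, an integrin gene of tissue-resident cells, was the other way round, at 55.3 and 73 against 210.2 and 249.6 CPM, as was Tnfsf10, the gene of the death ligand TRAIL, at 29 and 46.7 against 88.3 and 117. In the MWA plus TIGIT library the counting intervals of the 2 kinds overlap for Eomes and Tnfsf10. Cells with Gzmc only were few, and Ncr1, which defines the class, was at 223 and 70.2 CPM in them against 277 and 283 in cells with Gzma only.

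Gzmd, Gzme, Gzmf and Gzmg were counted mostly in NK-like and CD8+ exhausted-like cells and there in few cells (plot of UMIs per positive cell). Gzmf, the most counted of the 4, was at 323 CPM (95% interval 298 to 350.4) and 120.3 CPM (95% interval 103 to 140.2) in CD8+ exhausted-like cells, from 26 of 323 and 15 of 222 cells with a UMI, that is 8.05% (5.33 to 11.6) and 6.76% (3.83 to 10.9). The cells with most Gzmf held 166, 80 and 73 of 601 UMIs in the MWA library and 66, 19 and 18 of 164 in the other. The share of cells with Gzmf thus overlapped between the libraries, while the UMIs per positive cell were the larger ones in the MWA library. In NK-like cells Gzmf lay in 5 and 4 cells, where 1 cell of the MWA library held 154 of 163 UMIs and 2 of the MWA plus TIGIT library held 235 and 217 of 463. Gzmd lay in 12 and 4 exhausted-like and 5 and 3 NK-like cells, and Gzme in 14 and 4 and in 5 and 3. Gzmg, the rarest member, had 12 and 7 UMIs in all kept cells and is not compared. A counting interval assumes independent molecules and does not cover this concentration in single cells.

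**Figure D4:**
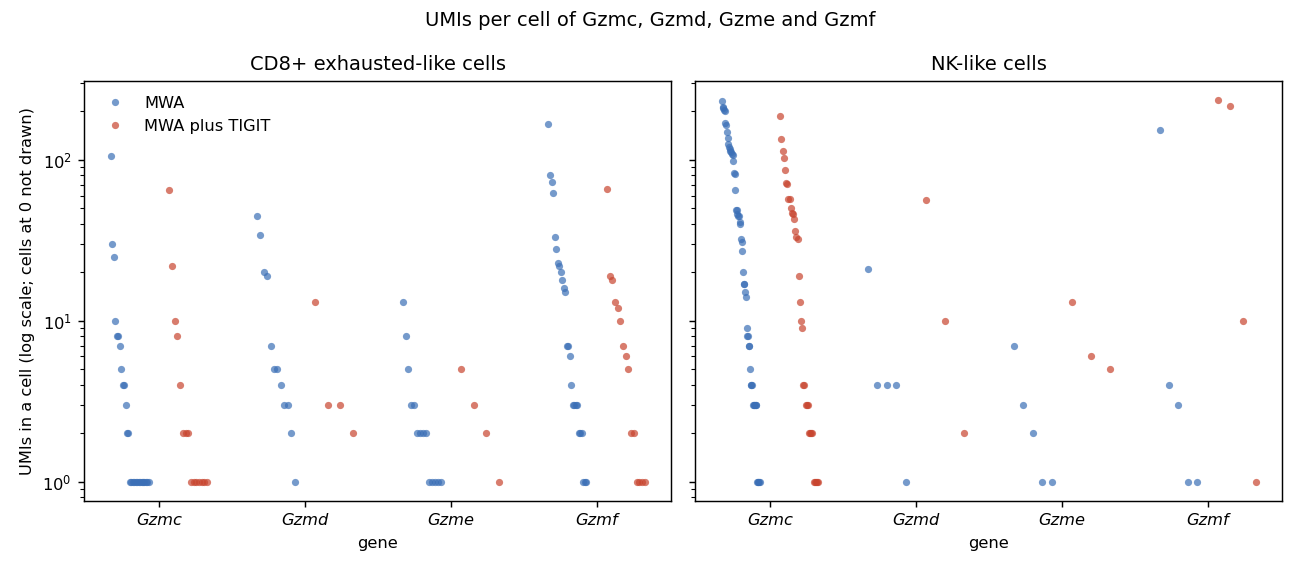
UMIs of Gzmc, Gzmd, Gzme and Gzmf in each cell that holds at least 1, in CD8+ exhausted-like and NK-like cells of the MWA and the MWA plus TIGIT library, on a log axis, 1 point per cell. Gzmf in NK-like cells rests on 5 and 4 points, and the highest point of each group holds a large share of all its UMIs.

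The CD8+ exhausted-like cells with Gzmf were also richer in other members, over cells as deposited. Gzmb was found in 80.8% and 86.7% of cells with Gzmf, against 32% and 25.1% of cells without it. Prf1 was found in 69.2% and 53.3% against 26.9% and 32.9%, and Gzmc in 38.5% and 33.3% against 5.72% and 4.83%. Gzma was found in 11.5% and 6.67% against 3.37% and 9.66%, on 3 of 26 and 1 of 15 cells with Gzmf. These cells are too few to read a direction for Gzma. The cells with Gzmf were deeper, with medians of 7395.5 and 8174 UMIs against 5117 and 5669, and the shares were also read in thinned cells of the MWA library, where 18 cells held Gzmf. There Gzmb was found in 33.3% (13.3 to 59) of 18 with Gzmf and 16.3% (12.3 to 20.9) of 301 without it, Prf1 in 16.7% (3.58 to 41.4) of 18 and 8.97% (5.99 to 12.8) of 301, and Gzmc in 22.2% (6.41 to 47.6) of 18 and 3.99% (2.08 to 6.86) of 301, each with overlapping intervals. For Gzmd the intervals were apart, at 22.2% (6.41 to 47.6) of 18 and 1.33% (0.363 to 3.37) of 301. For Gzma the shares were 5.56% (0.141 to 27.3) of 18 and 1.99% (0.735 to 4.29) of 301.

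Members were found together in the same cells in some classes more than in others. In thinned CD8+ effector-like cells Gzmb was found in 54.9% (47.6 to 62.1) of 193 cells with Gzma and 29.3% (24.8 to 34.1) of 389 without it in the MWA library, and in 59.3% (53 to 65.4) of 258 and 38.6% (34.5 to 42.9) of 546 in the MWA plus TIGIT library. In Trdc Klra7 T cells the shares were 60% (36.1 to 80.9) of 20 and 18.1% (12.7 to 24.6) of 177, and 55.2% (35.7 to 73.6) of 29 and 13.7% (8.19 to 21) of 124. In both classes the cells with Gzma were thus more often cells with Gzmb, with intervals apart in each library. At least 2 members were found in 19% and 26.1% of CD8+ interferon-induced-like cells, 7.65% and 15.2% of cycling-like cells and 9.4% and 7.69% of exhausted-like cells, against 0.0238% and 0.0454% of TAM-like cells.

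The comparison of the libraries asks how TIGIT blockade added to MWA went with the levels of these genes in the tumor that was not ablated. Log2 ratios are of CPM, MWA plus TIGIT over MWA, and a gene counted as 2-fold higher or lower needed at least 20 UMIs over both libraries. In all CD8+ T cells, Gzmk was at 71.1 and 139 CPM for a log2 ratio of 0.97 (0.84 to 1.10), Gzmb at 333 and 583 with 0.81 (0.74 to 0.87), and Prf1 at 45.5 and 66.3 with 0.54 (0.37 to 0.72). These 3 genes were higher in the MWA plus TIGIT library but under 2-fold. The mix of states in this pool differed between the libraries. Of 1948 and 2033 CD8+ T cells, 586 and 811 were effector-like and 323 and 222 exhausted-like. The part of this mix in the pooled ratios was not tested. Gzma had a small ratio of 0.25 (0.20 to 0.30) that turned to -0.13 in cells of at most 5000 UMIs and -0.06 in thinned cells, and Gzmm and Gzmc had intervals that hold 0, at 0.37 (-0.01 to 0.75) and 0.05 (-0.18 to 0.28). Gzmc there had no stable direction, at -1.51 in cells of at most 5000 UMIs, -1.40 in cells picked by markers, 0.84 with more doublets removed and 0.96 without Trav16 cells. Gzmd, Gzme and Gzmf were at -2.70 (-3.39 to -2.07), -2.19 (-3.29 to -1.23) and -1.68 (-1.92 to -1.45), the 3 of 9 members tested that were 2-fold lower. Most of their UMIs in this pool lay in exhausted-like cells. These cells held 148 of 149 and 21 of 24 UMIs of Gzmd, 45 of 48 and 11 of 11 of Gzme, and 601 of 620 and 164 of 202 of Gzmf. The same 3 calls in exhausted-like cells below are therefore not a separate observation. Of all genes tested in CD8+ T cells, 0.876% were 2-fold lower and 1.29%, but no member, 2-fold higher. The median log2 ratio was 0.25 over the members and 0.13 over all genes tested, and the latter lay between 0.05 and 0.14 in the classes compared, so a ratio should be read against it. Scaling by trimmed means (TMM) lowered every ratio of a class by 0.04 to 0.16, and in all CD8+ T cells 59.6% of the genes past 2-fold were higher ones before and 43% after it.

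**Figure D5:**
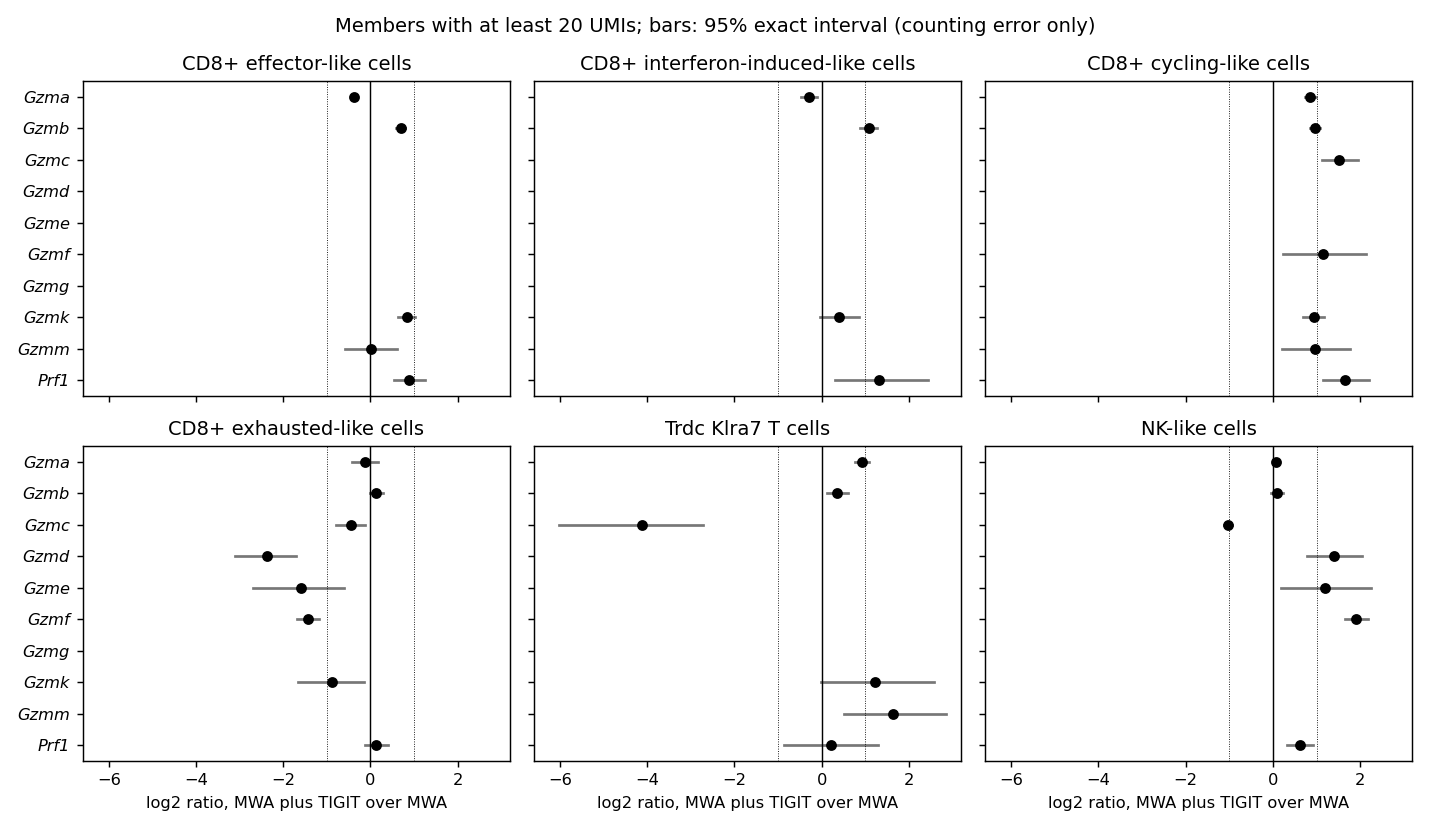
Log2 ratio of CPM, MWA plus TIGIT over MWA, of each member with at least 20 UMIs in 6 cell classes, with 95% counting intervals as bars, 1 library per group, and lines at 0 and at 2-fold. Gzmb lies above 0 in CD8+ effector-like (0.69), interferon-induced-like (1.08), cycling-like (0.97) and Trdc Klra7 T cells (0.36) and near it in exhausted-like (0.13) and NK-like cells (0.09).

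In CD8+ effector-like cells, Gzmk was at 159 and 282 CPM with a log2 ratio of 0.83 (0.63 to 1.03) and Prf1 at 50.3 and 93 with 0.89 (0.54 to 1.24), while Gzma was lower, at -0.39 (-0.45 to -0.32), and Gzmm was at 0.00 (-0.59 to 0.61). None of the 5 members tested was past 2-fold, against 2.16% of all genes higher and 1.28% lower (of genes past 2-fold 62.8% were higher, and 49.8% with TMM). The libraries differ in T cell receptor segments: Trav16, a V segment, had a UMI in 8 of 586 and 262 of 811 effector-like cells, so the members were compared with and without those cells. In the MWA plus TIGIT library, cells with Trav16 held 636 CPM of Gzma and cells without it 1793, whereas Gzmb was at 1123 and 782, Gzmk at 280.2 and 283, Gzmm at 7.85 and 28.8 and Prf1 at 97.5 and 90.8. The Trav16 cells of that library were thus low in Gzma and Gzmm, high in Gzmb and level in Gzmk and Prf1. In the MWA library the 8 cells with Trav16 held 2722 CPM of Gzma against 1841 without it, the other way round, and 1011 against 547 CPM of Gzmb. Without the Trav16 cells of both libraries the log2 ratio of Gzma in effector-like cells was -0.04 (-0.11 to 0.03), that of Gzmb 0.52 (0.40 to 0.63), that of Gzmk 0.83 (0.62 to 1.04) and that of Prf1 0.86 (0.49 to 1.25). The lower Gzma of this class was no longer seen among cells with no Trav16 UMI, while higher Gzmb, Gzmk and Prf1 were. Here and below, Trav16 cells are those with a Trav16 UMI. A cell in which none was counted may still carry the segment.

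In CD8+ interferon-induced-like cells, Gzmb was at 585 and 1234 CPM with a ratio, on the log2 scale, of 1.08 (0.88 to 1.27), and Prf1 at 21.3 and 52.9 CPM with 1.31 (0.30 to 2.44), on 11 and 34 UMIs. These were the 2 of 4 members tested past 2-fold, both higher, against 4.89% of all genes higher and 1.45% lower, and with TMM Gzmb was just short of 2-fold at 0.99 (of genes past 2-fold 77.1% were higher, and 65.4% with TMM). Gzma was at -0.29 (-0.47 to -0.10) and Gzmk at 0.40 (-0.04 to 0.85). Here too Trav16 cells stood apart, with 2085 CPM of Gzmb and 128 of Prf1 in 35 cells of the MWA plus TIGIT library against 961 and 28.8 in 127 cells without it. Without Trav16 cells the ratio was 0.76 (0.54 to 0.98) for Gzmb and 0.38 (-0.87 to 1.66) for Prf1, the latter with an interval that holds 0.

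In CD8+ cycling-like cells every member tested was higher in the MWA plus TIGIT library. Cd8b1, a marker of the class, was also higher there, at 471 and 624 CPM, and its part in the ratios was not tested. Gzma was at 245 and 445 CPM with a log2 ratio of 0.86 (0.75 to 0.98), Gzmb at 234 and 456 with 0.97 (0.85 to 1.08), and Gzmk at 56.1 and 107 with 0.94 (0.70 to 1.18). The highest cells held 306 and 232 of 1743 Gzma UMIs in the MWA plus TIGIT library, against 81 and 77 of 938 in the MWA library. A Gzma UMI was found in 59 of 539 and 102 of 520 cells. The log2 ratio of Gzmm was 0.97 (0.20 to 1.78). Prf1 at 1.66 (1.15 to 2.20), Gzmc at 1.52 (1.12 to 1.95) and Gzmf at 1.15 (0.23 to 2.13) were the 3 of 7 members tested that were 2-fold higher, against 1.62% of all genes higher and 0.964% lower (of genes past 2-fold 62.7% were higher, and 43.7% with TMM). Of 197 Gzmc UMIs in the MWA plus TIGIT library, 122 lay in 1 cell, and without the highest cell of each library the ratio was 0.36 (-0.15 to 0.89). Gzmf lay in 6 cells of the MWA library and 2 of the other, which held 19 and 15 UMIs, and was at 0.71 (-0.58 to 2.08) without the highest cells, under 2-fold. In cells of at most 5000 UMIs Gzma, Gzmc and Gzmm turned to -0.21, -1.03 and -0.03, all with intervals that hold 0. Without Trav16 cells Gzmb was at 0.48 (0.35 to 0.61), Gzmk at 0.22 (-0.07 to 0.50), Prf1 at 1.31 (0.77 to 1.88) and Gzma at 1.02 (0.89 to 1.14). The higher Gzmk of cycling-like cells was therefore within counting error among cells with no Trav16 UMI, while Gzmb stayed higher.

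In CD8+ exhausted-like cells Gzmd, Gzme and Gzmf had the lowest ratios. Gzmf was at 323 and 120.3 CPM, Gzmd at 79.7 and 15.4 with a log2 ratio of -2.37 (-3.10 to -1.71), and Gzme at 24.2 and 8.07 with -1.59 (-2.69 to -0.61). They were the 3 of 8 members tested that were 2-fold lower, against 1.06% of all genes lower and 3.04% higher (of genes past 2-fold 74.2% were higher, and 48.8% with TMM, by which Gzmk also passed 2-fold lower at -1.03). Without the 1 cell of each library with most UMIs of the gene, Gzmf was at -1.71 (-2.04 to -1.39) and Gzmd at -3.24 (-4.49 to -2.21), and in thinned cells Gzme was at -0.21 (-2.89 to 2.15). Gzmb and Prf1 of the same state had ratios of 0.13 (-0.02 to 0.28) and 0.13 (-0.14 to 0.40), with intervals that hold 0, but Gzmb was at -0.57 (-1.08 to -0.08) in cells of at most 5000 UMIs, and Gzmk was at -0.87 (-1.66 to -0.14). Gzmc was at -0.46 (-0.78 to -0.13), where 1 cell of the MWA library held 106 of 228 UMIs, and the ratio turned to 0.44 with more doublets removed and 0.46 without Trav16 cells. Gzma was at -0.12 (-0.43 to 0.18), with 127 of 227 UMIs in 1 cell of the MWA library, and at 0.64 without the highest cell of each library.

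In NK-like cells Gzma and Gzmb were close in the libraries, at log2 ratios of 0.08 (0.01 to 0.15) and 0.09 (-0.05 to 0.23), and Gzma turned to -0.04 with TMM. Prf1 was at 224 and 344 CPM with a log2 ratio of 0.62 (0.33 to 0.91), and its thinned share was 19.2% (13.5 to 26) of 167 and 33.3% (25 to 42.5) of 120 cells, with intervals that overlap. Gzmc was lower, -1.03 (-1.12 to -0.93), with a thinned share of 27.5% (20.9 to 35) of 167 and 19.2% (12.6 to 27.4) of 120 cells, whose intervals overlap. For both genes the UMIs thus differed beyond counting error. The share of cells went the same way as the UMIs for each gene, and overlapping intervals do not show that the shares were alike. Gzmd, Gzme and Gzmf were higher, at 1.41 (0.79 to 2.05), 1.19 (0.18 to 2.25) and 1.91 (1.65 to 2.18), opposite to their ratios in exhausted-like cells, but on 5 and 4 cells with Gzmf, and Gzmd was at 0.31 (-0.95 to 1.56) and Gzmf at 5.09 without the highest cell of each library. Of 7 members tested 3 were 2-fold higher and 1 lower, against 3.08% and 1.49% of all genes (of genes past 2-fold 67.4% were higher, and 43.2% with TMM). The Prf1 of the MWA plus TIGIT library lay with Gzma, since in thinned cells Prf1 was found in 45.2% (34.3 to 56.5) of 84 cells with Gzma and 5.56% (0.68 to 18.7) of 36 cells without it, against 23.3% (15.9 to 32) of 116 and 9.8% (3.26 to 21.4) of 51 in the MWA library.

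In Treg-like cells Gzmb had a log2 ratio of 0.51 (0.42 to 0.60), and its thinned share was 43.4% (39.7 to 47.1) of 708 and 53% (48.9 to 57.2) of 577 cells, so both the UMIs and the share of positive cells were higher in the MWA plus TIGIT library. Markers of the class were also higher there, with Foxp3 at 459 and 532 CPM and Cd3e at 642 and 741 CPM. The part of this in the Gzmb ratio was not tested. Prf1 of Treg-like cells was at -0.27 (-1.32 to 0.75) on 20 and 16 UMIs, and neither of the 2 members tested was past 2-fold, against 1.52% of all genes higher and 1.63% lower (of genes past 2-fold 48.3% were higher, and 36.3% with TMM). In Trdc Klra7 T cells Gzmk at 1.22 (-0.02 to 2.57) and Gzmm at 1.63 (0.52 to 2.85) were 2-fold higher and Gzmc at -4.12 (-6.03 to -2.71) lower, that is 2 and 1 of 6 members tested, against 3.36% and 1.42% of all genes (of genes past 2-fold 70.4% were higher, and 57.5% with TMM). Gzma was at 0.91 (0.75 to 1.08) there and Gzmb at 0.36 (0.11 to 0.61). Gzmc of this class lay in 20 and 2 cells, and 1 cell of the MWA library held 34 of 86 UMIs. The class held 49.5 and 159 CPM of Cd8b1, and the part of its makeup in these ratios was not tested. In CD4+ T-like cells Gzma was at 20.7 and 68.9 CPM, levels far below those of CD8+ effector-like cells.

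Of the listed genes that load, move, restrain or accompany granzymes, 1 of 33 tested was past 2-fold in all CD8+ T cells, 2-fold lower, and 1 of 28 in NK-like cells, 2-fold higher, against 0.876% lower and 3.08% higher of all genes, and nothing is read about the lists from 1 gene each. In all CD8+ T cells the median log2 ratios were 0.11 for granule content and granzyme activation, 0.25 for granule exocytosis, 0.06 for serpins, 0.28 for death receptor ligands and 0.32 for transcription factors, beside 0.13 over all genes tested. Of 9 genes of granule content and granzyme activation, which include Ctsc, the protease that activates granzymes, and Srgn, the proteoglycan that stores them, none was past 2-fold in all CD8+ T cells, where log2 ratios ran from Ctsc at -0.04 to Nkg7 at 0.34, or in NK-like cells (7 tested, M6pr at -0.12 to Ctsc at 0.60). Of 9 genes of granule exocytosis none was past 2-fold in all CD8+ T cells (Unc13d at 0.05 to Stx11 at 0.61), and in NK-like cells (8 tested, from Sytl2 at -0.02 to Stxbp2 at 1.20) Stxbp2, a syntaxin-binding protein needed for granule release, was 2-fold higher. Among 6 serpins, Serpinb1a was 2-fold lower in all CD8+ T cells (-1.10, 80 and 39 UMIs), the highest being Serpina3g (0.35), and in NK-like cells none was (5 tested, Serpina3g at 0.19 to Serpinb9b at 0.84). Serpinb9, the inhibitor of granzyme B, was at 223 and 256 CPM in NK-like cells and 12.4 and 16.1 CPM in Treg-like cells, although both classes were rich in Gzmb. The 2 death receptor ligands ran from Fasl at 0.24 to Tnfsf10 at 0.32 in all CD8+ T cells and from Tnfsf10 at 0.12 to Fasl at 0.64 in NK-like cells, and 7 transcription factors of cytotoxic cells from Zfp683 at -0.47 to Eomes at 0.52 and from Runx3 at 0.01 to Zeb2 at 0.50 (5 tested). In single classes 5 more genes of these lists were past 2-fold, 1 in each class. They were Zfp683 in effector-like (-1.77, 14 and 6 UMIs), Stx11 in exhausted-like (1.67, 18 and 42 UMIs), Sytl2 in interferon-induced-like (-1.32, 14 and 7 UMIs), Ctsh in Treg-like (-1.03, 53 and 25 UMIs) and Zeb2 in Trdc Klra7 T cells (1.89, 10 and 30 UMIs). In that order of classes, 1.28%, 1.06%, 1.45%, 1.63% and 1.42% of all genes were lower. The shares of higher genes were 2.16%, 3.04%, 4.89%, 1.52% and 3.36%. The numbers of list genes tested are given below, and nothing is read about the lists from 1 gene in each class. Of the other proteases of the chromosome 14 locus only Cma1, a mast cell chymase gene, had at least 20 UMIs in a class compared, NK-like cells, with a log2 ratio of 0.20.

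The lowest and highest log2 ratios of each list in the other 5 classes compared were as follows. In CD8+ effector-like cells (31 genes tested) they were Srgn at -0.04 to Cd63 at 0.50 for granule content, Stxbp2 at -0.04 to Stx11 at 0.99 for exocytosis, Serpinb9 at -0.17 to Serpina3g at 0.78 for serpins, Fasl at 0.08 to Tnfsf10 at 0.28 for death ligands and Zfp683 at -1.77 to Eomes at 0.61 for transcription factors. In CD8+ exhausted-like cells (32 tested) they were Ctsc at -0.26 to Ctsh at 0.80 for granule content, Vamp7 at -0.31 to Stx11 at 1.67 for exocytosis, Serpinb9 at -0.34 to Serpinb9b at 0.89 for serpins, Fasl at -0.01 to Tnfsf10 at 0.59 for death ligands and Eomes at -0.34 to Zeb2 at 0.76 for transcription factors. In CD8+ interferon-induced-like cells (26 tested) they were Ctsc at -0.14 to Calr at 0.41 for granule content, Sytl2 at -1.32 to Rab27a at 0.49 for exocytosis, Serpinb6b at -0.79 to Serpina3g at 0.53 for serpins, Fasl at -0.03 to Tnfsf10 at -0.0026 for death ligands and Tbx21 at -0.23 to Id2 at 0.72 for transcription factors. In all 3 states the genes for the death ligands and for Nkg7, Ctsc and other granule proteins lay within 2-fold. In Treg-like cells (29 tested) they were Ctsh at -1.03 to Lamp2 at 0.49 for granule content, Lyst at -0.29 to Vamp7 at 0.51 for exocytosis, Serpinb6a at -0.03 to Serpinb9 at 0.39 for serpins, Fasl at 0.48 to Tnfsf10 at 0.54 for death ligands and Prdm1 at 0.02 to Tbx21 at 0.55 for transcription factors. In Trdc Klra7 T cells (26 tested) they were Srgn at -0.09 to M6pr at 0.39 for granule content, Rab27a at -0.60 to Sytl2 at 0.58 for exocytosis, Serpinb6a at -0.59 to Serpinb9 at 0.38 for serpins, Tnfsf10 at 0.05 to Fasl at 0.56 for death ligands and Eomes at -0.92 to Zeb2 at 1.89 for transcription factors.

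Over the 15 classes with at least 50 cells in both libraries, which give 30 points that share libraries and differ in depth, the genes most like each member in log2(CPM + 10) were found by Pearson's r, as a description. For Gzma they were Itga1 (0.92), Samd3 (0.92), Klrc2 (0.91), for Gzmb Tnfsf10 (0.89), Cst7 (0.88), Cysltr2 (0.87), for Gzmk Wdr95 (0.83), Armc7 (0.81), Exosc4 (0.79) and for Gzmm Lcn4 (0.82), Hdgfl3 (0.79), Gm2682 (0.78). For Prf1 they were Klre1 (0.86), Klrc2 (0.84), Crtam (0.84), and for Gzmc Klri2 (0.91), Klrb1a (0.90), Car2 (0.90), several of them killer cell lectin receptor genes. For Gzmd they were Gzmf (0.98), Sema4c (0.86), Klri2 (0.86), for Gzme Gzmd (1.00), Gzmf (0.98), Klri2 (0.87) and for Gzmf Gzmd (0.98), Sema4c (0.89), Nrgn (0.88). Gzme was too rare to be a candidate for the other members. Between members, Gzma and Gzmb had an r of 0.75, Gzmb and Prf1 0.74, Gzmf and Prf1 0.81, Gzma and Gzmk 0.67, and Gzmc and Gzmk 0.01.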

How the data were processed

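Single cells of 2 libraries, 1 for each group, were profiled with the 10x Genomics 3' v3.1 kit. The authors deposited matrices of raw counts, that is UMIs per gene and cell barcode, with no normalization. The submitters' processing notes name Cell Ranger 6.1.1 and the mm10 build, whereas the matrix headers name version 4.0.0. The raw totals were 66152465 and 78751205 UMIs, and 56168653 and 67123133 after filtering.

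Barcodes with fewer than 200 genes (1 in each library) or more than 10% mitochondrial UMIs (179 and 276) were removed, as were 806 and 786 doublets, taken as the highest scores against simulated doublets at 0.8% per 1000 barcodes. The study's own doublet caller was not applied, and its upper limit of 5000 UMIs per cell was applied only as an alternative. Integration and clustering used Seurat 5.3.0 under R 4.3.3 (2000 variable features, 3000 integration features, 40 principal components, resolutions of 0.1 for all cells, 1 for T and NK cells and 0.5 for CD8+ T cells). The members, Gzmn and T cell receptor variable segments were left out of the features. Clusters were named by markers, and 1 CD8+ cluster is counted among all CD8+ T cells but not reported here. Limits in the naming (a 3-fold excess of Cd8b1 over Cd4, at most 500 CPM of C1q genes, a stem-like score of at least 1, ties named by leading genes) were set after clusters and the members' levels had been seen. The members and lists were chosen with earlier results of these data known.

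UMIs were summed per class and library and given as CPM with exact Poisson intervals. Shares of cells, after thinning each cell to 1000 UMIs and leaving out shallower cells, have exact binomial intervals, and ratios of CPM exact conditional binomial intervals, all at 95%. With 1 library per group no test was run. A gene was counted as higher or lower from 2-fold with at least 20 UMIs over both libraries. All members were named, and of the other lists the genes past 2-fold and the highest and lowest ratio. Likeness was Pearson's r of log2(CPM + 10) over classes of at least 50 cells, for members with at least 100 UMIs against genes with at least 200. Promoters, transcripts and positions came from RefSeq and GENCODE on GRCm38. Scripts used Python 3.11.15, numpy 2.4.6, scipy 1.17.1, scikit-learn 1.9.0 and Biopython 1.88, and TMM factors came from edgeR 4.0.16. The code was tested on simulated data. Alternatives are given in the closing section.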

Additional observations from a re-analysis of the deposited data

Results flagged for a closer look

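Each result here is a log2 ratio of CPM, MWA plus TIGIT over MWA, of a member whose interval lay above 0 in one cell class and below 0 in another. With 1 library per group the differences between classes were not tested, and the intervals cover counting error only.

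Gzma was higher in the MWA plus TIGIT library in CD4+ T-like cells (1.74), Trdc Klra7 T cells (0.91), CD8+ cycling-like cells (0.86) and, slightly, NK-like cells (0.080), and lower in CD8+ effector-like (-0.39) and interferon-induced-like cells (-0.29). The highest cell held 15 of 62 and 57 of 185 Gzma UMIs in CD4+ T-like cells and 79 of 527 and 169 of 804 in Trdc Klra7 T cells. In cycling-like cells it held 81 of 938 and 306 of 1743. The ratio of cycling-like cells turned in cells of at most 5000 UMIs, and that of NK-like cells with TMM. In effector-like cells the ratio was within counting error without cells with a Trav16 UMI. Gzmc was higher in CD4+ T-like (2.28) and CD8+ cycling-like cells (1.52) and lower in CD8+ exhausted-like (-0.46), NK-like (-1.03) and Trdc Klra7 T cells (-4.12). In CD4+ T-like cells of the MWA plus TIGIT library 21 of 26 Gzmc UMIs lay in 1 cell, and without the highest cell of each library the ratio was 0.90 (-1.46 to 3.58), and that of cycling-like cells was 0.36 (-0.15 to 0.89).

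Gzmd, Gzme and Gzmf were higher in NK-like cells (1.41, 1.19 and 1.91) and lower in CD8+ exhausted-like cells (-2.37, -1.59 and -1.43). In NK-like cells these ratios rest on very few cells. There 1 cell held 154 of 163 Gzmf UMIs in the MWA library, and 2 cells held 235 and 217 of 463 in the other. For Gzmd the highest cell held 21 of 34 and 56 of 68 UMIs. Gzmf was also higher in CD8+ cycling-like cells (1.15), where 2 cells held all its UMIs in the MWA plus TIGIT library against 6 cells in the MWA library. The ratio there was 0.71 without the highest cell of each. Gzmk was higher in CD8+ cycling-like (0.94) and effector-like cells (0.83) and lower in exhausted-like cells (-0.87).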

How the results depend on the processing

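Of 53 log2 ratios, recomputed under each alternative that applied, 408 recomputed values differed by less than the counting interval, 79 moved further and 10 turned, where a ratio could turn only if its own interval left out 0. Ratios with intervals that hold 0 changed sign as well, such as those of Gzmc in all CD8+ T cells and of Gzma and Gzmb in exhausted-like cells. None of the ratios moved so with a 5% mitochondrial limit or with the level of TAM-like cells subtracted. In all CD8+ T cells, Gzma was at -0.13 in cells of at most 5000 UMIs, -0.058 in thinned cells, 0.13 with TMM factors, 0.33 without Trav16 cells and 0.17 in cells picked by marker UMIs. Gzmb there was at 0.69 with TMM, 0.48 without Trav16 cells, 0.70 thinned and 0.74 picked by markers. Gzmc was at -1.51 in cells of at most 5000 UMIs, 0.84 with more doublets removed, 0.96 without Trav16 cells, -0.35 thinned and -1.40 picked by markers. Gzmf was at -2.07 in cells of at most 5000 UMIs and -1.22 without Trav16 cells, Gzmk at 0.59 without Trav16 cells and Prf1 at 0.79 in cells of at most 5000 UMIs. Of single states, the ratios that turned in cells of at most 5000 UMIs were those of Gzma (-0.21), Gzmc (-1.03) and Gzmm (-0.031) in cycling-like and Gzmc (-1.24) in CD4+ T-like cells. Gzmc in exhausted-like cells turned with more doublets removed (0.44), without Trav16 cells (0.46) and thinned (0.070), and Gzma in NK-like cells with TMM (-0.038). The cause was not tested. With genes of at least 5 UMIs, Gzmf was also 2-fold lower in effector-like cells, on 4 and 1 UMIs. Gzmg, on at most 9 UMIs, joined Gzmd, Gzme and Gzmf as lower in all CD8+ T and exhausted-like cells and higher in NK-like cells. The share of all genes past 2-fold at this lower limit is not given here, so nothing is read from these calls. Gzma in exhausted-like cells was at 1.44 when members and receptor segments were kept in the clustering, and at 0.64 without the highest cell of each library.

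Leaving out the highest cell and adding a heat-shock cluster were chosen after seeing the data. No paired analysis was possible because each group was 1 library, and leaving out a replicate was not possible for the same reason. Depth limits Gzmd, Gzme, Gzmg and Gzmm, which had few UMIs in most classes. The counting intervals cover neither the spread between mice nor the concentration of UMIs in single cells.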

Other observations

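Beside the granzyme genes, the chromosome 14 locus holds mast cell protease genes, which were seen in single cells of the myeloid classes. Cma1, a mast cell chymase gene, had 461 UMIs in TAM-like cells of the MWA library, 457 of them in 1 cell, and 86 in those of the MWA plus TIGIT library, at most 53 in 1 cell. Mcpt4, another chymase gene, had 313 and 35 UMIs there, with 303 and 24 in the highest cell. Mcpt2 had 2 and 132 UMIs in TAM-like cells. In DC-like cells of the MWA plus TIGIT library 1 cell held all 34 UMIs of Mcpt2, 22 of Mcpt4 and 25 of Cma1. In NK-like cells, Cma1 was seen at 15 and 13 UMIs in 9 and 8 cells, so there it was spread over cells and not held by 1.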
